A study of Homo sapiens with 4 samples.

Results

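Claudins and the proteins that join them at the tight junction were followed in gastric epithelial cells exposed to bacterial lipopolysaccharide (LPS). The members were given as 10 gene symbols: the claudins CLDN1, CLDN2, CLDN3, CLDN4, CLDN7, CLDN12 and CLDN18, occludin (OCLN), ZO-1 (TJP1) and JAM-A (F11R). Every probe set that the platform annotation assigned to one of these symbols alone was taken, which gave 19 of 54613 probe sets and 9 of 19775 genes. F11R is not analysed here. The measured cells were MKN45, an established human line of gastric adenocarcinoma origin, seeded in plates and given new medium on the day of treatment. In the LPS-treated group that medium held 10 µg/ml of LPS from Helicobacter pylori for 8 h, and in the untreated group it held none. The groups had 2 Affymetrix arrays each, described as coming from 2 independent experiments. What the replicate numbers stand for is not stated, so p-values measure the spread between these arrays only.

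Tight junctions close the gap between neighbouring epithelial cells near the apical surface and decide which ions and solutes pass between the cells. Claudins span the membrane and bind those of the next cell: some seal the gap, and others form channels through it. Occludin and the JAM proteins accompany the claudin strands, and ZO-1 ties the strands to actin from inside the cell. In the stomach this barrier holds back acid, and Helicobacter pylori is known for contacts with junction proteins of the gastric epithelium. LPS is the glycolipid of the bacterial outer membrane and is sensed by Toll-like receptors, which signal through the transcription factor NF-kB.

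The deposited levels were log2 values with array medians of 7.004 to 7.034, and any 2 arrays correlated at r = 0.996 to 0.998 across probe sets, which are not independent replicates. Of 8 epithelial markers 7 passed the filter on low levels, and KRT18, KRT8, EPCAM, KRT19 and CDH1 among them lay at or above the 99.1 percentile of the untreated arrays. Of 8 leukocyte markers 4 passed it, while PTPRC, which all leukocytes carry, and CD14 lay under it. The T cell gene CD3E nevertheless lay at the 67.0 percentile, and LYZ, which gastric epithelium also makes, at the 98.7 percentile. Of 9 fibroblast and endothelial markers 8 passed the filter, among them COL1A1 at the 80.9 percentile and VIM at the 55.1 percentile. A middle percentile is therefore no sign of expression on these arrays, and since probe sets differ in how well they bind, their levels do not rank genes by abundance. A level above that of CD3E does not by itself show expression either. The leukocyte marker CD53 lay at the 73.1 percentile, and COL1A1 higher still. In these 4 marker lists 0 genes passed the test.

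None of the junction genes passed the test after LPS. Of the 19 probe sets 17 had a mean over the 4 arrays above the 30 percentile (6.06) and entered the test, and the other 2, both of CLDN18, were fitted without that filter. With limma and Benjamini-Hochberg adjustment over all 38229 probe sets, 0 of 17 had an adjusted p under 0.05, where 0.00785% of all probe sets had one. The adjusted p of the 17 ran between 0.516 and 0.924. Before adjustment 0 of 17 had p under 0.05 in either direction, against 3.69% (higher) and 8.02% (lower) of all probe sets. Taken as 1 probe set per gene, 0 of 9 genes were called either way, where 0.0246% of 16252 genes were called. The gene counts before adjustment were also 0, against 3.72% higher and 7.91% lower over all genes. Both LPS-treated arrays lay above both untreated arrays for 2 of the 17 probe sets and below them for 4, where 19.1% and 24.2% of all probe sets were so placed. Neither count stands apart from the share over all probe sets.

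The 95% intervals, from the fit without a replicate block, hold for each probe set alone and not for all jointly. Where a level is no sign of expression, a narrow interval does not limit a change of the gene. The 95% interval of the difference, LPS-treated minus untreated, lay within 1.5-fold in either direction for 16 of the 17 probe sets and within 1.25-fold for 13. Fitted folds ran between 0.925 and 1.14, and the outermost interval limits were 0.735-fold and 1.52-fold, both for 1 probe set of CLDN1. The difference was smaller than the larger of the 2 within-group SDs for 11 of the 17. The shares over all probe sets are not given for these interval and SD counts, so the counts do not set the junction genes apart. The median difference was -0.028 for the 17 probe sets and -0.0039 for all probe sets tested, and the median size regardless of sign was 0.079 and 0.081. On the same arrays the test did make calls: CCL20, a chemokine gene driven by NF-kB, read 8.66 and 8.50 in LPS-treated cells, against 5.70 and 5.61 in untreated cells. That is 7.61-fold, with limma's adjusted p at 9.82e-05 over genes. Its difference of 2.93 was the largest of all genes tested, and it was named after its value was seen. With an untreated mean of 5.65, CCL20 passed the level filter only through its LPS-treated arrays. A call of this size does not show that changes as small as those fitted for the junction genes would be called.

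**Figure D1:**
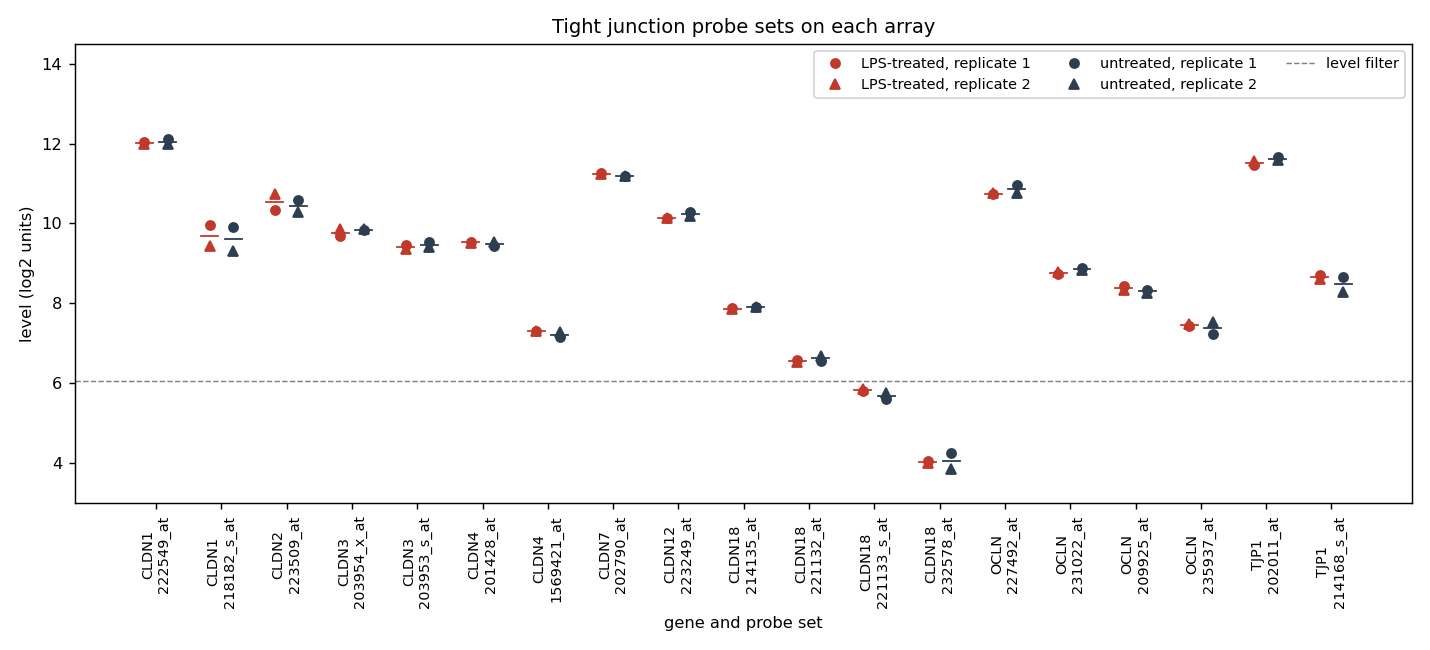
Levels of the 19 tight junction probe sets on each array, in log2 units, with LPS-treated arrays to the left of untreated arrays for each probe set, circles for replicate 1, triangles for replicate 2 and bars for group means. The dashed line is the level filter at 6.06, and 2 CLDN18 probe sets lie under it.

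**Figure D2:**
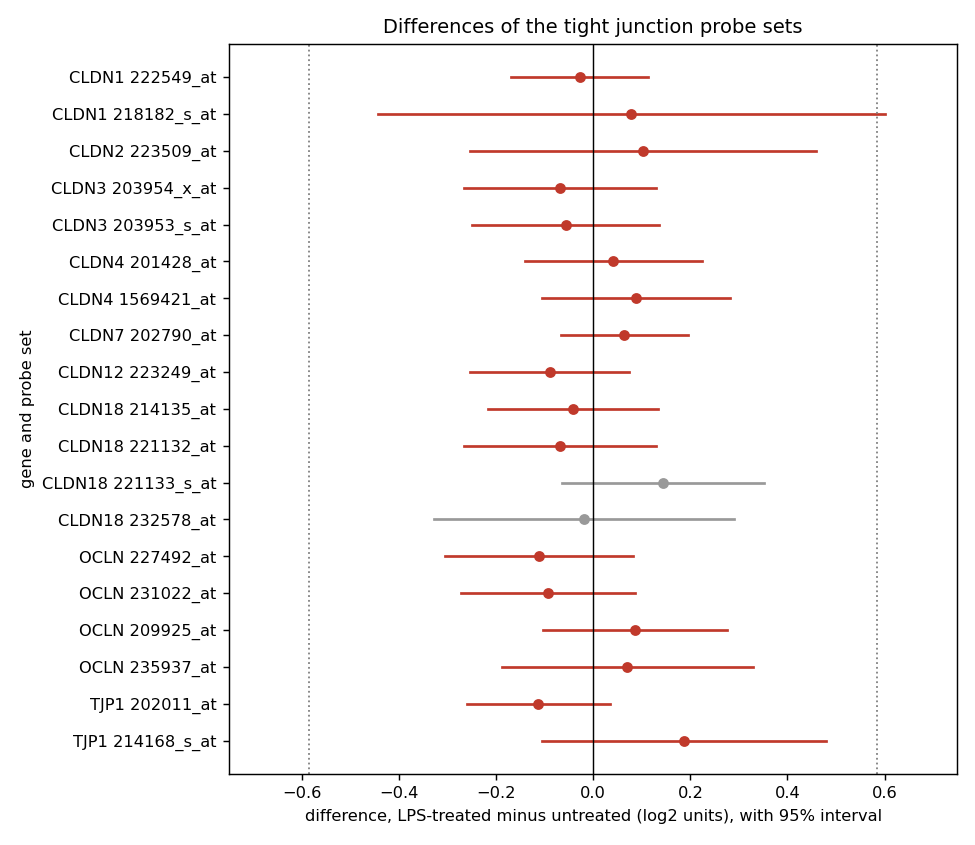
Fitted difference of each probe set, LPS-treated minus untreated in log2 units, as points with 95% intervals as lines. Every interval includes 0, the dotted lines mark 1.5-fold, and grey marks the 2 CLDN18 probe sets under the level filter, which were fitted without it.

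The sequences before the genes' starts are shown for CCL20, which was called, and for 3 claudins that were not, as examples only. They are the 250 bases upstream of the RefSeq start in GRCh38.p14, written along the gene's strand with motif matches in capitals. CCL20 is at chr2:227813592-227813841 on the plus strand, CLDN1 at chr3:190322447-190322696 on the minus strand, CLDN4 at chr7:73830746-73830995 on the plus strand and CLDN7 at chr17:7262479-7262728 on the minus strand.
CCL20: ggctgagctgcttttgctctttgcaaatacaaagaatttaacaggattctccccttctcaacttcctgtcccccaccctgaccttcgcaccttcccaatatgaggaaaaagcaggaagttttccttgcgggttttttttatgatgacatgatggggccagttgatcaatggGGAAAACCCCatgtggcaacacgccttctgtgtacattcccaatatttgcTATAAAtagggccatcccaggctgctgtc
CLDN1: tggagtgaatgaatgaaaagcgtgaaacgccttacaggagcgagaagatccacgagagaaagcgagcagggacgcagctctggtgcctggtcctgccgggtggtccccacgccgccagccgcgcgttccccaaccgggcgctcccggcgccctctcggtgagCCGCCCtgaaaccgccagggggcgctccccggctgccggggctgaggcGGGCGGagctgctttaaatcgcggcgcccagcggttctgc
CLDN4: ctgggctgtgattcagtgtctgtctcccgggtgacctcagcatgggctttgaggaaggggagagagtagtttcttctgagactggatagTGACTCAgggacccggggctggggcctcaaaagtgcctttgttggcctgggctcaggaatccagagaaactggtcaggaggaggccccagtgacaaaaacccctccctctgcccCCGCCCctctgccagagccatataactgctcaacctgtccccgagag
CLDN7: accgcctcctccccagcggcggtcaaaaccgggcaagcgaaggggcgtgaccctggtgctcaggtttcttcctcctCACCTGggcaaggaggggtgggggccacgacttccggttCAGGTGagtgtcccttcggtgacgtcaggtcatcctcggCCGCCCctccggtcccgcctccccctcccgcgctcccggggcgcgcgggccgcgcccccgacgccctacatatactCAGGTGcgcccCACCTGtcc
The motifs were the NF-kB site GGGNNTTTCC, the AP-1 site TGACTCA, the E-box CAGGTG, the GC box GGGCGG and the TATA box TATAAA, each sought on both strands. None of these motifs contains another.

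In the CCL20 window the NF-kB letters stand 79 to 70 bases before the start on the opposite strand, and a TATA box stands 29 to 24 bases before it. CXCL1, another NF-kB-driven chemokine gene, also has the NF-kB letters 79 to 70 bases before its start. CCL20 and CXCL1 were picked from the 4 called genes after their values were seen. Windows of the other called genes are not described here. CXCL1 read 8.87 and 8.79 in LPS-treated cells, against 6.87 and 6.80 in untreated cells, which is 3.98-fold with an adjusted p of 0.000287 over genes. The 9 junction genes have 16 windows in the RefSeq table, of which 0 hold the NF-kB letters and 0 the TATA box, where 1.73% and 10.7% of all 35116 windows hold them. With 16 windows, a count of 0 does not stand apart from either share. An AP-1 site is present in 1 of the 16, in CLDN4 at 161 to 155 bases before the start, against 4.2% of all windows. E-boxes, the letters bound by Snail-type repressors of epithelial genes, are in 5 of the 16 windows against 17.5% of all. The CLDN7 window printed above holds 4 of them, and CLDN18, OCLN and TJP1 windows hold 1 each where they hold any. GC boxes are in 8 of the 16 against 42.6% of all, with 4 in the CLDN3 window and 2 in the CLDN1 window. The printed claudin windows do not stand for all junction genes. Those of CLDN2 and CLDN12, a second CLDN7 window, a second CLDN18 window and 1 TJP1 window hold none of the motifs. Windows of 1 gene can overlap, and the starts used in MKN45 cells were not measured. A match is a description of letters, and a window without one says nothing about the factor.

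Among the sealing claudins, CLDN1 is widely expressed in epithelia and was measured by 2 probe sets. Probe set 222549_at read 12.05 and 11.99 in LPS-treated cells, against 12.11 and 11.98 in untreated cells. Its difference was -0.028 (95% interval -0.17 to 0.11, adjusted p = 0.894 by limma), and the groups overlapped. The other, 218182_s_at, read 9.95 and 9.42 in LPS-treated cells, against 9.90 and 9.31 in untreated cells. Here the arrays numbered 1 were high and those numbered 2 low in both groups, by 0.53 in LPS-treated and 0.59 in untreated cells. The difference between groups was 0.079, with the widest interval of the 17 (-0.44 to 0.60) and an adjusted p of 0.924 in limma's fit without a replicate block. By replicate number the differences were 0.047 and 0.11, and with the block limma's adjusted p was 0.605. The wide spread was not shared by 222549_at, which differed by 0.061 between the LPS-treated arrays and by 0.13 between the untreated arrays.

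CLDN3 and CLDN4, both receptors of a clostridial enterotoxin, are neighbouring coding genes on chromosome 7. For CLDN3, 203954_x_at read 9.68 and 9.87 in LPS-treated cells, against 9.83 and 9.85 in untreated cells, a difference of -0.069 (95% interval -0.27 to 0.13). Its second probe set, 203953_s_at, read 9.46 and 9.37 in LPS-treated cells, against 9.54 and 9.41 in untreated cells, a difference of -0.056 (95% interval -0.25 to 0.14). Arrays of the groups overlapped in both, with limma's adjusted p at 0.787 and 0.827. The suffixes of these probe sets mark probes that can bind transcripts of other genes. For CLDN4, 201428_at read 9.54 and 9.51 in LPS-treated cells, against 9.43 and 9.55 in untreated cells, with a difference of 0.042 (95% interval -0.14 to 0.22). Probe set 1569421_at of CLDN4 read 7.30 and 7.30 in LPS-treated cells, against 7.15 and 7.28 in untreated cells, and its difference was 0.088 (95% interval -0.11 to 0.28). Both LPS-treated arrays lay just above both untreated arrays for 1569421_at and overlapped them for 201428_at, and limma's adjusted p was 0.71 and 0.872.

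CLDN7, which lies along the lateral membrane and binds the adhesion protein EPCAM, gave close replicates. It read 11.27 and 11.23 in LPS-treated cells, against 11.18 and 11.20 in untreated cells. The LPS-treated arrays were both higher, by 0.064 on average (95% interval -0.067 to 0.19, adjusted p = 0.684 by limma). This was the narrowest interval of the 17 and reached up to 1.14-fold higher. CLDN12, an atypical claudin without the tail motif by which most claudins bind ZO proteins, read 10.14 and 10.14 in LPS-treated cells, against 10.28 and 10.18 in untreated cells. Both LPS-treated arrays were lower, with a mean difference of -0.089 (95% interval -0.25 to 0.075, adjusted p = 0.648 by limma). A further probe set that the annotation shares between CLDN12 and its neighbour PTTG1IP2 was left out.

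CLDN2 forms a channel for cations and water and makes epithelia leakier. It read 10.34 and 10.75 in LPS-treated cells, against 10.60 and 10.28 in untreated cells. One LPS-treated array gave the highest value and the other lay between the untreated arrays, so the groups overlapped. The difference of 0.10 was smaller than the SD of 0.29 among LPS-treated and 0.23 among untreated arrays, and its 95% interval was -0.25 to 0.46 (adjusted p = 0.831 by limma). After 218182_s_at of CLDN1 this was the least precise measurement among the claudins tested in the fit without a replicate block.

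**Figure D3:**
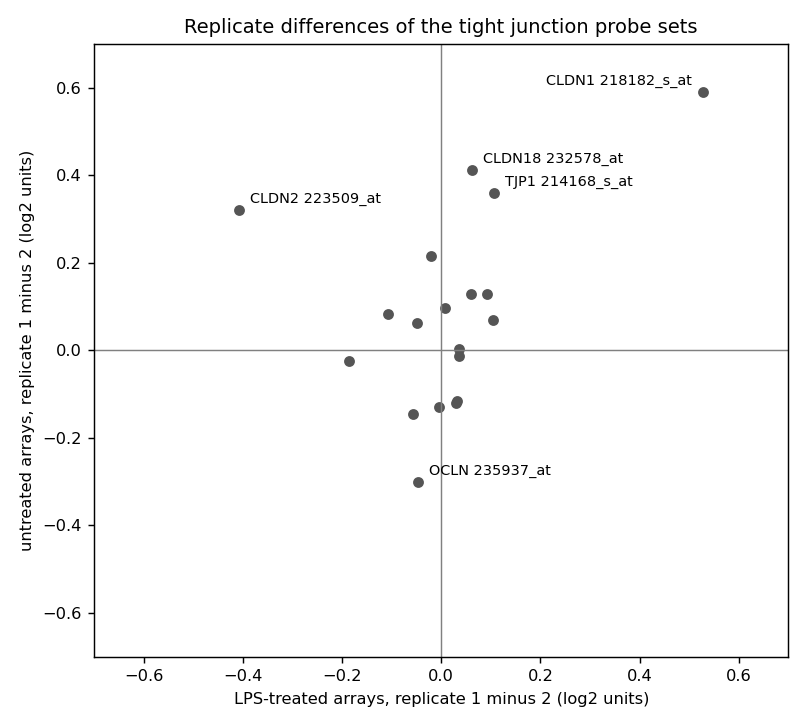
Replicate 1 minus replicate 2 in log2 units for each of the 19 probe sets, in LPS-treated arrays (horizontal axis) and untreated arrays (vertical axis). CLDN1 218182_s_at lies apart at 0.53 and 0.59, and CLDN2 223509_at lies at -0.41 and 0.32.

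CLDN18 is the claudin typical of gastric epithelium, where its stomach isoform is a target of antibody therapy in gastric cancer. Its 4 probe sets read low or middling in MKN45 cells, and none differed between groups by the test. The brightest, 214135_at, read 7.88 and 7.85 in LPS-treated cells, against 7.91 and 7.90 in untreated cells. It was lower on both LPS-treated arrays, with a mean difference of -0.041 (95% interval -0.22 to 0.13, adjusted p = 0.867 by limma). At the 67.1 percentile of the untreated arrays it stood where CD3E stood, so its level does not by itself show that these cells make CLDN18. Probe set 221132_at read 6.57 and 6.54 in LPS-treated cells, against 6.56 and 6.68 in untreated cells, a difference of -0.069 with overlapping groups (95% interval -0.27 to 0.13). The remaining probe sets were under the filter: 221133_s_at read 5.80 and 5.85 in LPS-treated cells, against 5.61 and 5.75 in untreated cells, and 232578_at read 4.05 and 3.99 in LPS-treated cells, against 4.25 and 3.83 in untreated cells. In the fit without a filter their differences were 0.14 (95% interval -0.065 to 0.35) and -0.019 (95% interval -0.33 to 0.29). Other gastric markers were mixed: TFF1, a mucus peptide, lay at the 98.5 percentile and GKN1, a product of surface mucous cells, at the 14.1 percentile.

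OCLN was measured by 4 probe sets, and they did not share a direction. Probe set 227492_at, the brightest, read 10.74 and 10.76 in LPS-treated cells, against 10.97 and 10.75 in untreated cells. It differed by -0.11 (95% interval -0.30 to 0.083, adjusted p = 0.629 by limma), and 1 untreated array stood above the other 3 arrays. At 8.74 and 8.78 in LPS-treated cells, against 8.89 and 8.82 in untreated cells, 231022_at was lower on both LPS-treated arrays, with a difference of -0.094 (95% interval -0.27 to 0.085). By contrast 209925_at read 8.44 and 8.34 in LPS-treated cells, against 8.34 and 8.27 in untreated cells, a difference of 0.086 (95% interval -0.10 to 0.28). For 235937_at the levels were 7.43 and 7.47 in LPS-treated cells, against 7.23 and 7.53 in untreated cells, a difference of 0.070 (95% interval -0.19 to 0.33). Arrays of the groups overlapped in the last 2, and limma's adjusted p of the 4 was between 0.629 and 0.843. The neighbouring coding gene of OCLN on chromosome 5 is MARVELD2, which encodes tricellulin, a related protein of 3-cell contacts. MARVELD2 read 9.99 and 10.00 in LPS-treated cells, against 10.14 and 10.13 in untreated cells, a difference of -0.14 that did not pass (adjusted p = 0.448 by limma). A second MARVELD2 probe set above the filter differed by -0.24, with both LPS-treated arrays lower.

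TJP1 encodes ZO-1, the scaffold that binds claudin tails, occludin and actin, and its probe set 202011_at had the smallest p of the 17. It read 11.46 and 11.57 in LPS-treated cells, against 11.67 and 11.58 in untreated cells, so that both LPS-treated arrays were lower, the second of them by little. The difference was -0.11 (95% interval -0.26 to 0.034), and limma's adjusted p over all probe sets was 0.516. The other, 214168_s_at, pointed the other way, with 8.71 and 8.60 in LPS-treated cells, against 8.65 and 8.29 in untreated cells. Its difference of 0.19 (95% interval -0.11 to 0.48) was the largest of the 17 and had overlapping groups and an adjusted p of 0.588. Of the 6 genes with more than 1 probe set above the filter, 3 had probe sets in both directions, namely CLDN1, OCLN and TJP1. The share of such genes over all genes is not given here. In CLDN1 and TJP1 the higher probe set carries the suffix _s_at, with the limit given for CLDN3, while those of OCLN do not.

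Counted over the 17 probe sets, 8 differences were above 0 and 9 below. Across all probe sets the median difference moved with level, at 0.022 for mean levels under 7, 0.012 between 7 and 8, -0.016 between 8 and 9, -0.043 between 9 and 10, -0.050 between 10 and 11 and -0.031 over 11. The junction probe sets are spread over these levels, with 1 under 7, 3 each in the ranges 7 to 8, 8 to 9, 10 to 11 and over 11, and 4 between 9 and 10. The part of this trend in the small differences of single probe sets was not tested.

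**Figure D4:**
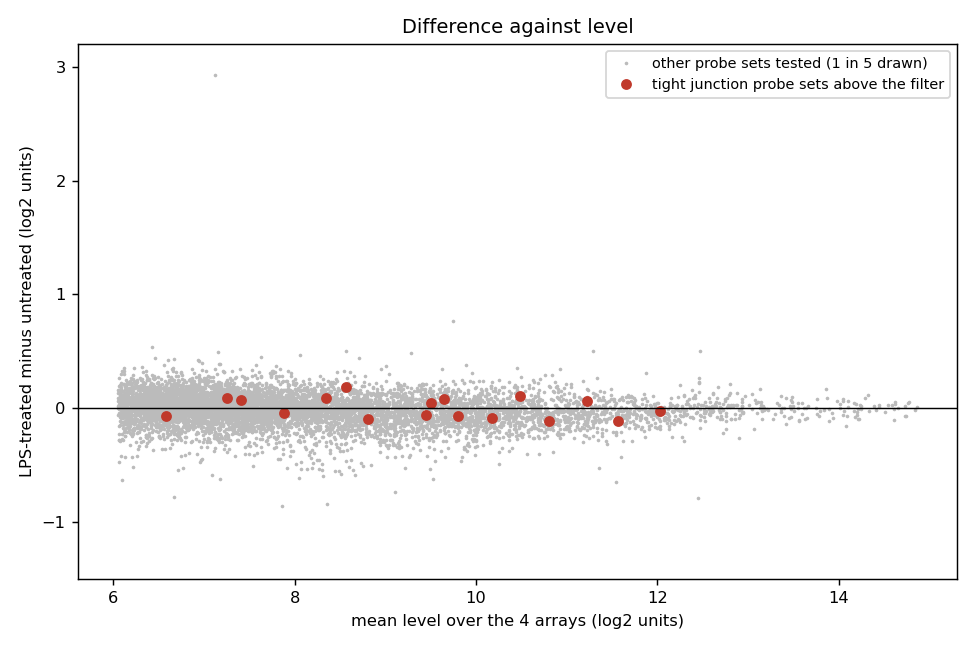
Difference, LPS-treated minus untreated in log2 units, against the mean level over the 4 arrays for the 17 tight junction probe sets above the filter (red) and 1 in 5 of the other probe sets tested (grey). The red points lie between -0.11 and 0.19, inside the range of -0.24 to 0.19 between the 5 and 95 percentiles of all probe sets tested.

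The rest of the junction was taken as 4 lists with 63 genes, of which 50 had a probe set above the filter, and 0 of 50 passed the test. The smallest adjusted p was 0.257. Before adjustment 9 had p under 0.05, of which 4 were higher and 5 lower, where 3.72% of all genes were higher and 7.91% lower. The median difference was -0.0056 over the 50 genes and -0.0047 over all genes.

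Of 14 other claudins 10 were tested (CLDN5, CLDN6, CLDN9, CLDN10, CLDN11, CLDN14, CLDN15, CLDN16, CLDN17 and CLDN19), with a median difference of 0.018. Before adjustment 0 had p under 0.05. CLDN17, an anion channel known from the kidney, read 7.99 and 8.00 in LPS-treated cells, against 7.83 and 7.82 in untreated cells, a difference of 0.17 (95% interval -0.0075 to 0.34, adjusted p = 0.432 by limma). CLDN16, a kidney claudin of magnesium transport whose gene lies next to CLDN1 on chromosome 3, differed by 0.066 (95% interval -0.11 to 0.24). For both genes the LPS-treated arrays were higher than the untreated ones. CLDN17 and CLDN16 lay at the 65.8 and 60.2 percentiles of the untreated arrays, under CD3E, so their levels do not show expression. CLDN8, CLDN20 and CLDN23 were under the filter.

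Among 9 tested of 12 further membrane proteins, the median difference was -0.011, and before adjustment p was under 0.05 for 1 higher and 2 lower genes. The angulins LSR and ILDR1, which recruit tricellulin to 3-cell contacts, pointed in opposite directions. LSR read 11.42 and 11.50 in LPS-treated cells, against 11.07 and 11.32 in untreated cells, a difference of 0.26 (95% interval 0.058 to 0.47, adjusted p = 0.359 by limma). ILDR1 read 7.52 and 7.39 in LPS-treated cells, against 7.76 and 7.68 in untreated cells, a difference of -0.26 (95% interval -0.46 to -0.062, adjusted p = 0.355 by limma). A second ILDR1 probe set differed by -0.013. ILDR1 lay at the 64.0 percentile of the untreated arrays, under CD3E, so its level does not show expression. MARVELD3, a relative of occludin, differed by -0.21 with limma's adjusted p at 0.426. Its other probe sets differed by -0.19 and -0.0081.

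Scaffold and polarity proteins, 17 tested of 21, had a median difference of -0.040, and before adjustment p was under 0.05 for 0 higher and 2 lower genes. PRKCI, the atypical protein kinase C of the Par polarity complex, had the smallest p of the 4 lists. It read 12.55 and 12.40 in LPS-treated cells, against 12.90 and 12.80 in untreated cells, a difference of -0.37 (95% interval -0.52 to -0.22, adjusted p = 0.257 by limma). Its other probe sets differed by -0.22 and -0.13. PATJ, a scaffold of the Crumbs complex, read 8.74 and 8.78 in LPS-treated cells, against 9.05 and 8.95 in untreated cells, a difference of -0.24 (95% interval -0.42 to -0.053). Its 5 probe sets above the filter ran between -0.27 and 0.17.

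Regulators of the junction, 14 tested of 16, had a median difference of -0.0043, and before adjustment p was under 0.05 for 3 higher genes and 1 lower gene. MYLK, the myosin light chain kinase that tightens the actin belt and opens junctions, read 7.08 and 6.92 in LPS-treated cells, against 6.53 and 6.76 in untreated cells. The difference was 0.36 (95% interval 0.10 to 0.61, adjusted p = 0.341 by limma), and the other MYLK probe set above the filter differed by 0.096. Those under the filter differed by -0.040, 0.0069 and -0.11. MYLK lay at the 41.8 percentile of the untreated arrays, under CD3E, so its level does not show expression. RAB13, a small GTPase in the traffic of junction proteins, read 12.16 and 12.14 in LPS-treated cells, against 12.34 and 12.32 in untreated cells. Its difference was -0.18 (95% interval -0.28 to -0.073, adjusted p = 0.32 by limma). The polarity kinase MARK2 and the membrane protease PRSS8 differed by 0.22 and 0.19, with adjusted p at 0.419 and 0.404. MARK2 lay at the 61.7 percentile, also under CD3E, so its level does not show expression. Its other probe set was under the filter and differed by -0.013.

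**Figure D5:**
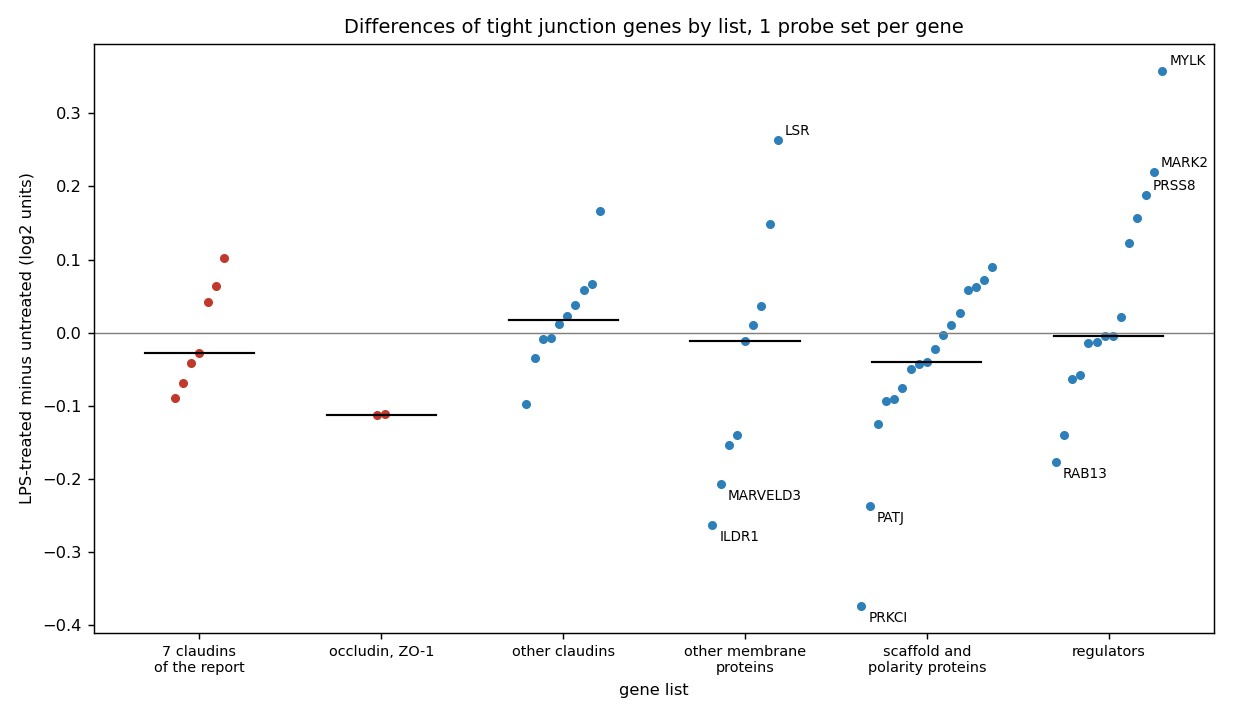
Difference of each gene, LPS-treated minus untreated in log2 units, by list, with 1 point per gene at its brightest probe set and a bar at the list's median; within a list, points are ordered by size. The 9 junction genes described first (red) lie between -0.11 and 0.10, and the labelled genes of the other lists have p under 0.05 before adjustment, with 0 past the adjusted threshold.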

How the data were processed

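The deposited values were log2 levels of 54675 Affymetrix probe sets on 4 arrays of biotin-labelled RNA, as judged from their range. MAS5 and RMA were used, per the submitters' processing notes; their versions, and which of them made the values, are not given in the sources used here. The arrays had nearly the same distribution as deposited, so a shift of all transcripts one way would not be visible. Depth does not apply to arrays, and the number of arrays limits the precision.

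After 62 control probe sets and those with a mean under the 30 percentile were left out, LPS-treated and untreated arrays were compared with limma 3.58.1 in R 4.3.3 (lmFit, eBayes with an intensity trend, two-sided, no replicate block, Benjamini-Hochberg adjustment over 38229 probe sets or 16252 genes, threshold 0.05). A gene was represented by its brightest probe set with a single symbol and kept that probe set's p. Symbols came from the platform annotation, under which 41091 probe sets had 1 symbol, 1801 had several and 11721 had none. By Entrez identifier 41037 of the 41091 matched RefSeq of GRCh38.p14. Named genes were all probe sets of the listed symbols and, from each of the 4 junction lists, those past the threshold or else the 2 with the smallest p. MARVELD2, MARVELD3, MARK2 and PRSS8, and markers, CCL20 and CXCL1, were named after their values were seen. Members and lists were chosen with earlier results of these data known. The procedure was tested on simulated data. Alternatives were other filters, normalizations, variance settings, probe set rules, a replicate block and leaving out each array.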

Additional observations from a re-analysis of the deposited data

How the results depend on the processing

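The count of junction probe sets past the threshold, and that of genes in the 4 junction lists, was 0 under every alternative run, with a smallest adjusted p of 0.17 for any junction probe set. Of 225 values of single junction probe sets under alternatives 211 kept their direction and side of the threshold, and 14 changed sign without passing. Over all probe sets the count of 3 became 5 with a filter at the 50 percentile, 8 after quantile normalization, 8 after cyclic loess, 17 after median centring, 5 with robust variances and between 2 and 11 with 1 array left out (11 without untreated replicate 1). The gene count of 4 became 7 with the replicate block, and 10 with variances moderated over 1 probe set per gene, which was added after seeing the data. The cause of these changes was not tested. Arrays with the same replicate number had deviations from their group means that correlated at 0.214 across probe sets; with 2 numbers this is no test of a pairing, and the block left each count of junction calls at 0. The median difference of the junction probe sets was 0.0068 with the filter at the 50 percentile, 0.0096 after quantile normalization, 0.012 after cyclic loess and -0.042 after median centring, and -0.059 to -0.0034 with 1 array left out. CLDN1 222549_at changed sign after quantile normalization (0.0096) and cyclic loess (0.012). With 1 array left out, sign changes occurred in CLDN1 222549_at (-0.093 to 0.037), CLDN1 218182_s_at (-0.22 to 0.37), CLDN2 (-0.10 to 0.31), CLDN3 203954_x_at (-0.16 to 0.024) and 203953_s_at (-0.12 to 0.0081), CLDN4 201428_at (-0.019 to 0.10), CLDN18 232578_at (-0.23 to 0.19) and OCLN 235937_at (-0.080 to 0.22). Where a group was left with 1 array, its spread was taken from the other group.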
